A study of Mus musculus with 24 samples.

Results

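Zfp is the symbol under which many C2H2 zinc finger genes of the mouse are named. The members described here were the regions of open chromatin at most 1 kb from either end of a protein-coding gene whose symbol is Zfp followed by digits only, with Zfp36, which encodes an RNA-binding protein of another family, left out. The rule found 200 regions among the 13910 of the deposited count table, near 197 of 366 such genes. The rule used positions and names and no measured value. Gene ends came from the RefSeq table of GRCm38.p6, the assembly that mm10 shares its coordinates with, and mm10 is the build in the submitters' processing notes.

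The data were 24 ATAC-seq libraries, in which Tn5 transposase cuts open chromatin and the cut fragments are counted per region. All sorted cells were of WT donor origin and carried CD45.1. They had been recovered 13 to 15 weeks after transplantation from the bone marrow of young CD45.2 recipients that were either WT or of the line labelled IκB–, whose genetic change the labels do not describe. Between 500 and 1500 cells per sample were sorted as lineage-negative, Sca1-positive, c-Kit-high cells of 4 subsets: HSC (labelled as long-term stem cells, with the gate given as Flt3–, CD150– and CD48–), MPP2 (Flt3–, CD150+, CD48+), MPP3 (Flt3–, CD150–, CD48+) and MPP4 (Flt3+), where MPP stands for multipotent progenitor. Long-term stem cells are usually sorted as CD150+, so either the sign in the stated gate or the name of the HSC group is in doubt, and every comparison with HSC carries that doubt. The 8 groups of recipient and subset had 3 libraries each; in WT MPP3 the libraries numbered 2 and 3 agree within sampling noise (a chi-square of 1.005 for each degree of freedom) and entered the analysis as 1 sample, which leaves 23 replicates. Nothing in the labels says that the replicates came from separate mice, so p-values measure the spread between these samples, which may be technical. Fewer cells with an open region and less opening per cell cannot be told apart in such sorted pools. Of the markers of the sorted cells, 7 of 13 stem and progenitor genes had a region within 1 kb of an end, among them Kit, Cd34, Flt3 and Mecom, against 1 of 6 erythroid genes (Epor) and 0 of the granulocyte and monocyte, B cell, T and NK cell, and stromal genes listed.

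C2H2 zinc finger proteins bind DNA through arrays of small zinc-holding folds, each of which reads a few bases. In many of them a KRAB domain recruits the corepressor TRIM28, which brings histone methylation and heterochromatin to the bound sites, often transposable elements. Their genes have multiplied in tandem, so that many sit in clusters of close relatives, while others are single genes with older roles in transcription. Which members carry a KRAB domain was not analysed here.

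Regions of Zfp genes were found more often than regions of other genes. Of the Zfp genes 53.8% had a region at an end, against 38.1% of 21517 other protein-coding genes. A gene with another Zfp gene within 100 kb is called clustered here. The share was 53.3% for the 212 clustered genes and 54.5% for the 154 single ones. By chromosome the share was counted for 2, 4 to 11, 13, 17 and X only. Among these it ran from 0% of the 7 Zfp genes on chromosome X and 25.9% of the 27 on chromosome 4 to 63.4% of the 41 on chromosome 17 and 81.2% of the 16 on chromosome 5. Chromosome 7 held 51 of the 200 regions, chromosome 17 held 28 and chromosome 13 held 19. The regions lay at promoters: 163 overlapped a gene end, the nearest end was the start of the gene for 167 and its far end for 5, and the strand of 28 was not in the promoter table. A start site of the promoter table lay inside 151 of the 172 regions whose gene had one. The far-end regions included that of Zfp57, which keeps imprinted loci methylated: it lay 5862 bp from the start site of Zfp57 and also near an end of Mog. Another protein-coding gene had an end near 23 of the regions, and 4 regions served a pair of Zfp genes each, namely Zfp398 with Zfp786, Zfp580 with Zfp784, Zfp28 with Zfp78, and Zfp646 with Zfp668.

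The 250 bases before the start site are shown for members that differ in CpG content and in how their regions behaved (RefSeq, GRCm38.p6, read 5′ to 3′ on the strand of the gene). In the first 3, CpG dinucleotides are in capitals. Zfp91 (chr19:12796124-12796373, minus strand) has 22 of them and shares its promoter with Lpxn, Zfp664 (chr5:124862455-124862704, plus strand) has 28, and Zfp58 of the chromosome 13 cluster (chr13:67500523-67500772, minus strand) has 4.
Zfp91: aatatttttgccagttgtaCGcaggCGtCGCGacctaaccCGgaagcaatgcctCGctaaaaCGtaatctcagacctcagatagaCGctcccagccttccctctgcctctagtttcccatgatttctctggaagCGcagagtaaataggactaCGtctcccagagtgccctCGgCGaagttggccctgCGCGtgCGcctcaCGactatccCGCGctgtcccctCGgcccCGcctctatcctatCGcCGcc
Zfp664: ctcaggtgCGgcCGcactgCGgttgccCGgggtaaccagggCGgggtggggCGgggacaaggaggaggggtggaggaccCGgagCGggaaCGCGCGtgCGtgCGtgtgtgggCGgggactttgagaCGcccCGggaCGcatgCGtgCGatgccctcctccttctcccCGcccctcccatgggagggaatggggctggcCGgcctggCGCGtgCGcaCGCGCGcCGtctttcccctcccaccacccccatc
Zfp58: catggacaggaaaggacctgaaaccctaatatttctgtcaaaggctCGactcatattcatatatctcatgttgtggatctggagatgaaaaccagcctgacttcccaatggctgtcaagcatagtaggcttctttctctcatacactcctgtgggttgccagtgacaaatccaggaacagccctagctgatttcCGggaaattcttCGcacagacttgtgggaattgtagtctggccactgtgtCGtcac

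Promoters of Zfp genes on 1 chromosome can share sequence, which matters for reads that must be placed on 1 copy. In the pair Zfp456 (chr13:67375764-67376013, minus strand) and Zfp429 (chr13:67399768-67400017, minus strand), both of which had a region, 77 of 250 bases lie in runs of at least 20 bases found in the other promoter (capitals). In the pair Zfp971 (chr2:178023034-178023283, plus strand), which had a region, and Zfp970 (chr2:177464492-177464741, plus strand), which had none, 238 and 229 bases do.
Zfp456: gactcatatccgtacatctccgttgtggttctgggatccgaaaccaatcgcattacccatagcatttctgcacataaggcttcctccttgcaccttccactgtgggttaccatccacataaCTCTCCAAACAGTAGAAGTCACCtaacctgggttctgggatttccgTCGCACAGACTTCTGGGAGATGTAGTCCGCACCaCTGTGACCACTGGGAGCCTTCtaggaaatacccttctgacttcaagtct
Zfp429: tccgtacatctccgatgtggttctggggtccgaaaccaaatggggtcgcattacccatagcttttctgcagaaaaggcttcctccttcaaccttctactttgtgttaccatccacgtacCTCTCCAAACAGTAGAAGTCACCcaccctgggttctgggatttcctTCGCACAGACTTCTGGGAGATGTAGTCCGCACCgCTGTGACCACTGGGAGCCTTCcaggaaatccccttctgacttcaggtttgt
Zfp971: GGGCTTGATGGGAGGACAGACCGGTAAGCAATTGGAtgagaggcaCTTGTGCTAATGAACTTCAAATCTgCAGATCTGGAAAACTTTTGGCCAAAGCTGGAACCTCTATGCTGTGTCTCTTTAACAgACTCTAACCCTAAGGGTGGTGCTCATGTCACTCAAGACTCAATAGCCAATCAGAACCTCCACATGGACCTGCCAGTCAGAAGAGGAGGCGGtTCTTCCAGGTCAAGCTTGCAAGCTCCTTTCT
Zfp970: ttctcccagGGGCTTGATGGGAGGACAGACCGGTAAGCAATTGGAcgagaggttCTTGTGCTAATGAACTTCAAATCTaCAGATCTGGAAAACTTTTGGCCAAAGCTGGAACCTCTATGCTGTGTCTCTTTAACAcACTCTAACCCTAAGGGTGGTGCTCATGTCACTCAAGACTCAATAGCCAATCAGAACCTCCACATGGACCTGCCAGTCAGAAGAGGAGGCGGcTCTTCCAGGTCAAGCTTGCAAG
Runs of 36 bases found in another Zfp promoter occurred in 11.9% of the 160 promoters that overlapped a member and in 29 of the 121 Zfp promoters that overlapped no region. At least 50% of the runs were shared in 2 of the former (Zfp971 and Zfp442) and in 18 of the latter, including that of Zfp970. The read length and the handling of reads with several matches are not given in the sources used here, and their part in the absence of regions was not tested.

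Levels are given as CPM, counts per 1000000 after scaling of the library sizes, and are compared between genes only per kb of region. The members had a median of 150 CPM per kb, beside 161 for the 7414 other gene-end regions and 125 for the regions away from gene ends, and a median width of 401.5 bp, from 154 to 1455 bp. They took up 1.68% ± 0.114 (SD, n = 23) of the counts on nuclear chromosomes, with a lowest library at 1.44% and a highest at 1.86%. By group the mean share ran from 1.59% ± 0.0802 (n = 3) in IκB– MPP3 to 1.78% ± 0.0890 (n = 3) in IκB– MPP2. Library totals ran from 121599 to 963699 counts, so the median member had 7 to 60 counts per library.

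Summed over the whole region, which favours wide regions, the highest members were those of Zfp78 (337 ± 55.4 CPM, SD, n = 23), Zfp654 (324 ± 49.4), Zfp687 (293 ± 50.8), Zfp788 (293 ± 65.8), Zfp91 (288 ± 40.5) and Zfp143 (278 ± 46.2). Per kb the order differed: Zfp654 stood at 417 CPM per kb, Zfp317 at 387, Zfp367 at 359, Zfp120 at 341 and Zfp143 at 340, ahead of Zfp78 at 304, Zfp687 at 245 and Zfp788 at 238. Zfp91 is an E3 ubiquitin ligase of noncanonical NF-κB signalling, and Zfp143 is a factor that binds at promoters and chromatin loops. Both were open in every library: the region of Zfp91 (chr19:12795388-12796520) ranged from 246 to 355 CPM with a median of 302 in the 11 WT replicates and from 209 to 364 with a median of 266 in the 12 IκB– replicates. Those ranges overlap almost fully. By the same sum the lowest tested members were those of Zfp609, a partner of the cohesin loader (18.0 ± 10.7 CPM), Zfp995 (20.4 ± 13.2) and Zfp184 (22.2 ± 14.5), each listed at 0 in at least 1 library.

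Members with known single roles lay at every height of the range. Per kb of region, Zfp143 was at 340 CPM and Zfp91 at 254. Zfp64, a regulator of the Kmt2a gene in leukaemia, was at 231, and Zfp292 at 204. Zfp521, a cofactor of blood progenitors, was at 156, and Zfp281, a repressor studied in pluripotent cells, at 147. Zfp384, known as a fusion partner in B cell leukaemia, was at 143, Zfp335, needed for T cell maturation, at 136, and Zfp148 at 104. Of the repressors with known targets, Zfp809, which silences proviruses of the leukaemia virus type, stood at 157, Zfp568, which silences an Igf2 transcript, at 107, and Zfp57 at 71.6. Zfp217, Zfp106, Zfp423, Zfp467 and Zfp652, also on the list of genes with known roles, had no member region. The rule leaves out another pair on that list: Zfp683, a pseudogene in the RefSeq table, and Zfp161, now named Zbtb14, which had a region. For Zfp217 a start site inside the gene, over 1 kb from its ends, did overlap a region of the table, and 23 Zfp promoters in all overlapped a region that was not a member.

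Members kept a similar order of levels between recipients and between subsets. Across the 194 members that passed the filter on low counts, Spearman's rho between mean CPM in WT and in IκB– recipients was 0.960, and between HSC and MPP2, MPP3 and MPP4 it was 0.936, 0.919 and 0.925. These correlations are across regions of the same libraries and share the width of each region.

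The first question was whether the recipient changed the members in WT donor cells. No member was called (adjusted p under 0.05, edgeR quasi-likelihood test with Benjamini-Hochberg adjustment over 13325 regions) in the mean recipient effect, which is IκB– minus WT averaged over the 4 subsets. In that comparison 231 regions of the table were called (percent called 1.73), 39 of 7248 other gene-end regions (0.538%) among them. At an unadjusted p under 0.05 there were 14 members (7.22%), against 14.3% of all regions and 9.44% of the other gene-end regions. The members' log2 fold changes had a median of -0.01 and ran from -0.69 to 0.67, and the median was 0.01 for the other gene-end regions. For 187 of 194 members (96.4%) the 95% interval of the mean effect lay within a 2-fold change either way.

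Within single subsets the recipient effect was called for 0 members as well. Over all regions the recipient effect was called 28 times in MPP3 (0.21%), 6 times in MPP4 (0.045%) and 0 times in HSC or MPP2. At an unadjusted p under 0.05 there were 14 members in the MPP3 comparison (9.52% of all regions), 7 in that of MPP4 (7.1%), 6 in that of MPP2 (3.65%) and 5 in that of HSC (6.31%). Single subsets were measured less precisely: the interval lay within 2-fold for 116 members in MPP2, 114 in MPP3, 79 in MPP4 and 68 in HSC. The joint test of a recipient effect that differs between subsets called 0 members and 0 regions in all, with 6 members at an unadjusted p under 0.05 where 4.05% of all regions had one, and the smallest p among members was at Zfp110 (adjusted p 0.999, edgeR).

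The member with the smallest p in the mean recipient effect was the promoter of Zfp664 (chr5:124862420-124862772), a zinc finger gene with little described function. In HSC it stood at 61.1, 50.8 and 70.7 CPM in the WT libraries and at 13.8, 26.8 and 119.8 in the IκB– ones. In MPP2 it stood at 46.8, 60.6 and 99.0 against 37.5, 22.02 and 37.4. In MPP3 it stood at 68.3 and 71.9 against 59.3, 30.5 and 54.1, and in MPP4 at 76.5, 52.1 and 114.6 against 32.6, 22.8 and 27.7. Every IκB– library of MPP2, MPP3 and MPP4 lay below every WT library of its subset, and in HSC replicate 3 of IκB– lay above all the WT libraries. Over all regions such a separation was found for 5.60% in MPP2, 15.7% in MPP3 and 5.85% in MPP4. The log2 fold change of Zfp664 was -0.69 ± 0.22 (SE, adjusted p 0.0897, edgeR), and in MPP4 alone -1.45 ± 0.47 (adjusted p 0.426). Without replicate 3 of IκB– HSC, the library with the highest share of counts in gene-end regions (74.0%), the mean effect was -1.10 and passed the threshold (adjusted p 0.00395, edgeR). Its adjusted p ranged from 0.00395 to 0.196 over all the alternatives.

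The smallest p in the other direction was at Zfp715 (chr7:43312983-43313499). The 11 WT replicates ranged from 51.9 to 117 CPM with a median of 82.5, and the 12 IκB– replicates from 66.5 to 176 with a median of 111. The ranges overlap, and the log2 fold change of 0.41 ± 0.15 was not called (adjusted p 0.164, edgeR). Zfp281 had a log2 fold change of -0.47 ± 0.18 (adjusted p 0.188), with a median of 88.0 CPM in WT and 70.2 in IκB– replicates.

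In single subsets no member passed the threshold, also where the groups did not overlap. In HSC, Zfp748 stood at 36.7, 50.8 and 42.4 CPM in WT and at 110, 116 and 53.2 in IκB– libraries, which do not overlap, and its log2 fold change was 0.99 ± 0.37 (adjusted p 0.707, edgeR). In the other direction Zfp566 stood at 128, 82.1 and 108 against 48.2, 80.4 and 57.7, again without overlap (adjusted p 0.742, edgeR). In MPP3, Zfp971 stood at 68.3 and 33.7 CPM in the WT replicates and at 18.2, 18.7 and 18.9 in the IκB– ones, a log2 fold change of -1.42 ± 0.42 (adjusted p 0.128, edgeR). The groups do not overlap, and its promoter is the one shown above that is nearly identical to that of Zfp970. In MPP3 the groups did not overlap for 34 members that were lower (17.5%) and 16 that were higher (8.25%) in IκB– recipients, where 15.7% and 12.5% of all regions did so, and 8.35% and 15.8% of the other gene-end regions. At an unadjusted p under 0.05, 13 members were lower (6.70%), beside 1.90% of the other gene-end regions and 7.16% of all regions.

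**Figure D1:**
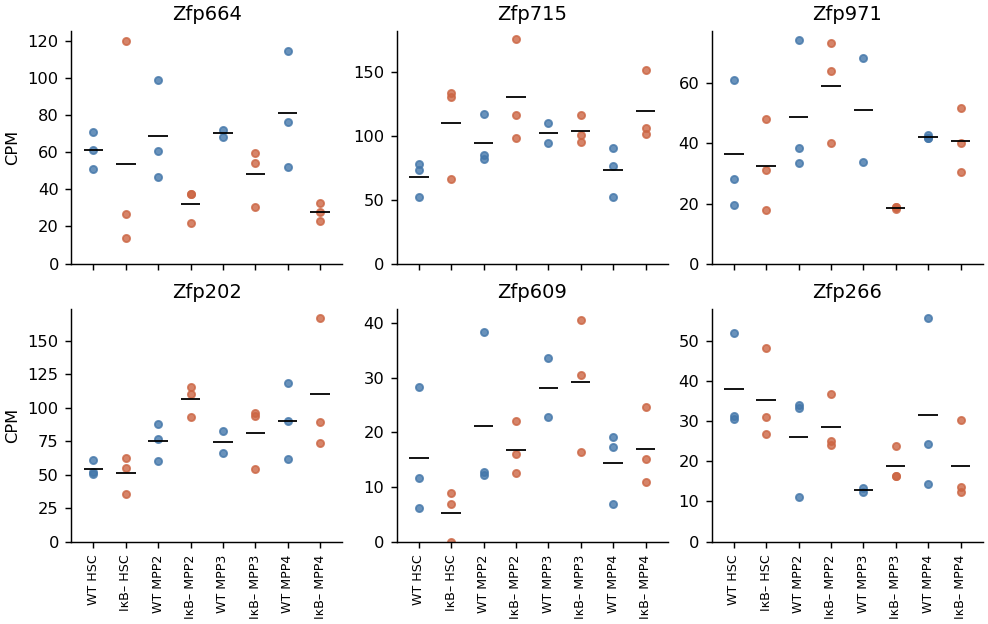
Scaled accessibility (CPM, y axis from 0) of 6 Zfp promoters in each replicate, by recipient and subset (x axis; WT blue, IκB– orange); points are replicates and black lines are group means. Zfp664 is lower in the IκB– libraries of MPP2, MPP3 and MPP4, with 1 IκB– HSC library at 119.8 CPM.

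The second question was whether the members differ between subsets, averaged over both recipients. The joint test across the 4 subsets called 957 regions (7.18%), 118 of the 7248 other gene-end regions (1.63%) and 0 members. Of the members 28 had an unadjusted p under 0.05 (14.4%), where 18.8% of all regions did. Against HSC, the calls over all regions were 4 in MPP2 (0.03%), 343 in MPP3 (2.57%) and 169 in MPP4 (1.27%), again with 0 members; 12, 17 and 15 members had an unadjusted p under 0.05, where 8.31%, 14.2% and 12% of all regions did. The members' median log2 fold change against HSC was 0.04 for MPP2, -0.11 for MPP3 and -0.03 for MPP4, beside -0.05, -0.03 and -0.06 for the other gene-end regions. In MPP3 75 of 194 members were above 0. With total counts in place of TMM scaling the median in MPP3 turned to 0.03 for members, where that of all regions went from -0.02 to 0.12, and the median in MPP4 turned to 0.02. Without replicate 3 of IκB– HSC the joint test called 11 of 198 members (10.9% of all regions) and MPP3 minus HSC called 5 (5.87%). Without any other single library the joint test called 0 to 3, and the fits that called a member called 6.45% to 8.54% of all regions. With replicate number as a block the joint test called 31 of 192 members (16.1%, beside 16.6% of all regions). MPP3 minus HSC then called 6 (3.12%, beside 7.07%) and MPP4 minus HSC 1 (0.521%, beside 3.43%). The count of 0 members is that of the main fit, which has no block.

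Zfp202 was the member with the smallest p in 2 of these contrasts. Its region (chr9:40192224-40192759) stood at 35.5 to 62.5 CPM (median 53.5) in the 6 HSC replicates, at 60.5 to 115 (90.7) in those of MPP2, at 54.1 to 96.1 (82.7) in those of MPP3 and at 62.1 to 167 (89.9) in those of MPP4. The HSC and MPP4 replicates nearly separate. Its log2 fold change was 0.88 ± 0.26 in MPP4 (adjusted p 0.0809, edgeR) and 0.82 ± 0.25 in MPP2 (adjusted p 0.371). Zfp12 was lowest in MPP4 with a median of 46.9 CPM against 73.5 in HSC (-0.82 ± 0.27, adjusted p 0.134, edgeR). In MPP3, Zfp609 was at 16.4 to 40.6 CPM against 0 to 28.3 in HSC (1.51 ± 0.52, adjusted p 0.115), and Zfp266 at 12.2 to 23.9 against 26.8 to 51.9 (-1.19 ± 0.39, adjusted p 0.0934, edgeR). Zfp951 had the smallest p of the joint test (adjusted p 0.0610), with a median of 38.5 CPM in MPP2, 23.2 in HSC, 16.2 in MPP3 and 14.5 in MPP4.

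**Figure D2:**
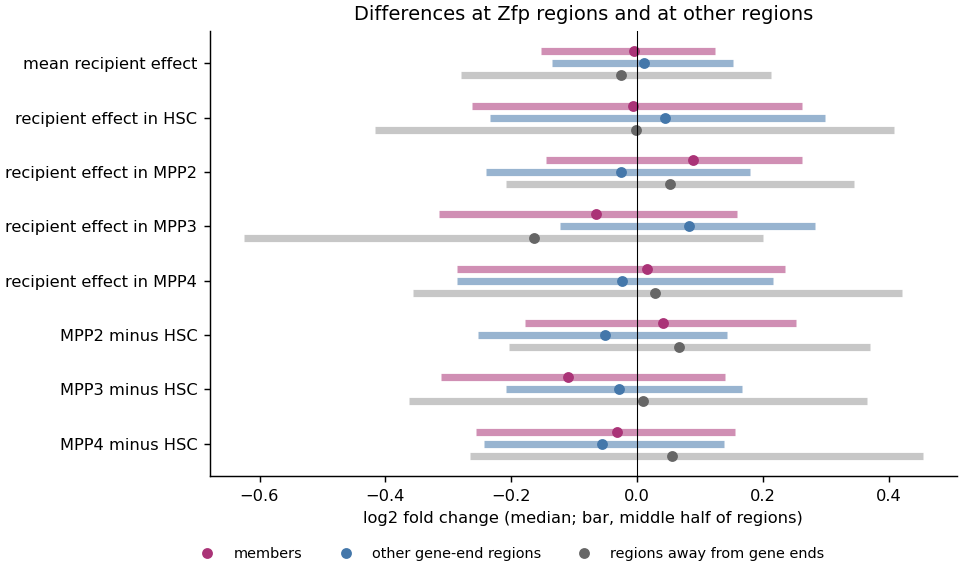
Log2 fold changes (x axis) for 8 comparisons (y axis) in the 194 tested Zfp regions, 7248 other gene-end regions and 5883 regions away from gene ends; points are medians and bars run from the first to the third quartile. All member medians lie within 0.12 of 0, the most negative (-0.11, but 0.03 with total counts) in MPP3 minus HSC.

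The summed level of the regions at clustered genes had a larger SD between libraries than that at single genes in 7 of 8 groups. Each group had 3 replicates, but WT MPP3 had 2. Summed over the 113 regions at clustered genes, the level ran from 6543 CPM in replicate 3 of IκB– MPP3 to 9824 in replicate 1 of IκB– HSC, a 1.501-fold span. Over the 87 regions at single genes it ran from 7120 to 8036, a 1.13-fold span. Recipients did not separate: the clustered sum was 8099 ± 733 CPM (SD, n = 11) in WT and 8085 ± 1083 (n = 12) in IκB– replicates. Within groups it did vary. In IκB– HSC it was 9824, 8639 and 6916 in the libraries numbered 1, 2 and 3, in WT HSC 9031, 8549 and 7174, and in WT MPP2 9229, 8007 and 6938. In WT MPP4, the group where the spread was smaller than at single genes, the SD of the clustered sum was 346 CPM and that of the single sum 405 (n = 3). The library numbered 1 was the highest of its group in 7 of the 8 groups, the exception being IκB– MPP3, while for single genes it was highest in 4. For the sum over the 7248 other gene-end regions it was highest in 0 of 8 groups, and that sum spanned 1.33-fold over libraries. What the replicate numbers stand for is not stated in the labels. With total nuclear counts in place of TMM scaling the clustered sum ran from 6802 to 10319 CPM and the single sum from 7570 to 8547.

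**Figure D3:**
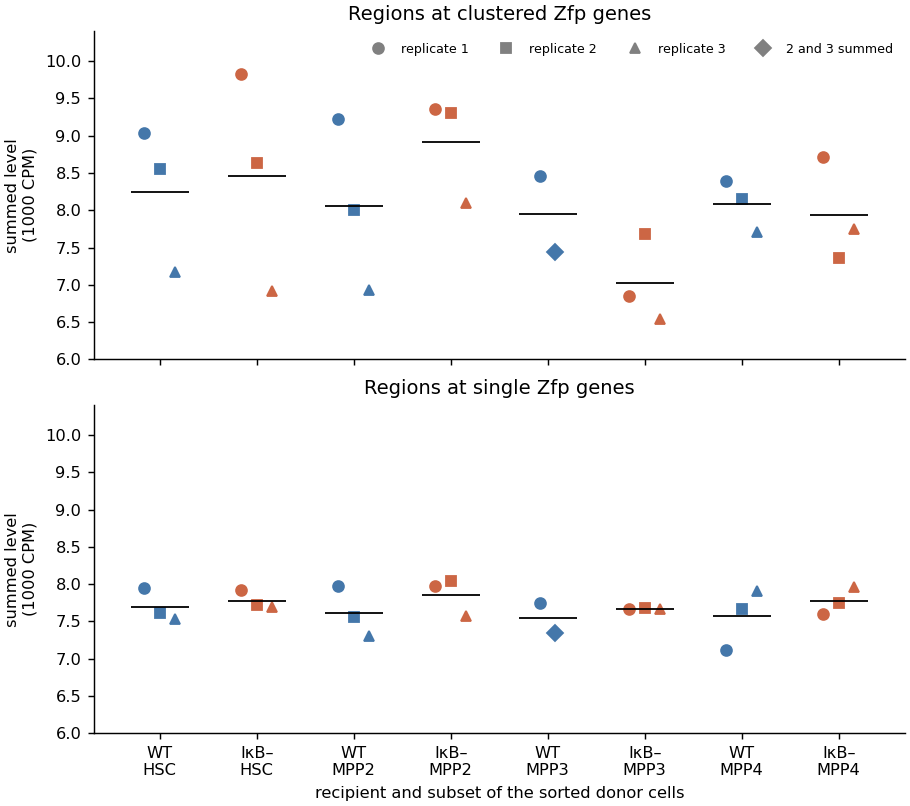
Summed accessibility (in units of 1000 CPM, y axis starting at 6) of the regions at clustered Zfp genes (top) and single Zfp genes (bottom) in each replicate, by recipient and subset (x axis); symbols give the replicate number and black lines the group mean. Clustered sums span 6543 to 9824 CPM, with the library numbered 1 on top in 7 of 8 groups, and single sums 7120 to 8036.

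The clustered sum moved against the share of counts that fell in gene-end regions, a measure of how strongly a library is concentrated on promoters. That share was 74.0% in replicate 3 of IκB– HSC, where the clustered sum was 6916 CPM, and 63.2% in replicate 1, where it was 9824. WT MPP4 replicate 1 had the lowest share, 61.9%, with a clustered sum of 8392. After subtraction of the group means, the correlation of each region with the gene-end share over the 23 replicates had a median of -0.32 for 110 clustered members, 0.02 for 84 single members and 0.20 for the 7248 other gene-end regions. These values share the libraries and their depth and are given as a description. Split by the CpG count of the promoter window, the median was -0.42 for 55 clustered and -0.38 for 18 single members with 0 to 14 CpG. At 15 to 24 CpG the signs differed, with -0.17 for 33 clustered and 0.23 for 30 single members. At 25 or more it was 0.17 for 8 clustered and 0.33 for 19 single members. Other promoters also rose with CpG count, from -0.13 at 0 to 14 CpG and 0.16 at 15 to 24 to 0.37 at 25 or more. The part of the gene-end share in the library differences was not tested.

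**Figure D4:**
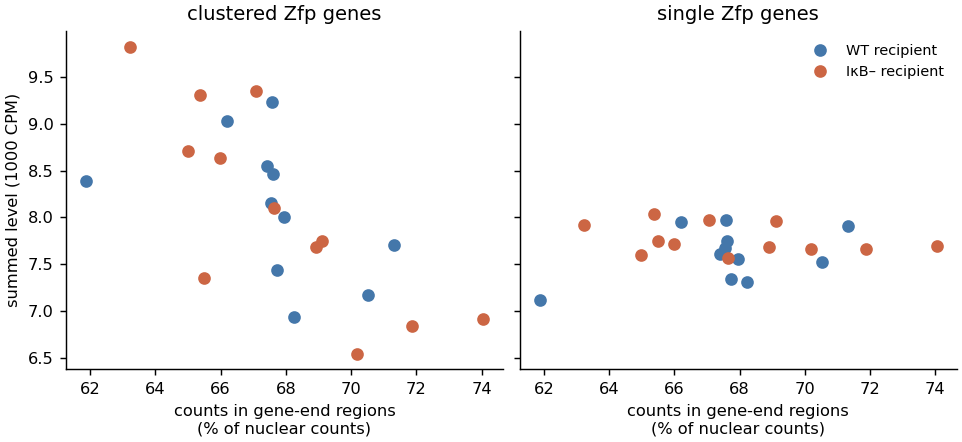
Summed accessibility of regions at clustered (left) and single (right) Zfp genes (in units of 1000 CPM, y axis) against the share of nuclear counts in gene-end regions (percent, x axis), 1 point per replicate, coloured by recipient. The clustered sum was 9824 CPM at a share of 63.2% and 6916 at 74.0%, and the single sums lie between 7120 and 8036.

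The clusters differed in how far their members moved together. In the cluster of 14 genes from Zfp712 to Zfp748 (chr13:67038594-67553152) 8 genes had a region, and their summed level ran from 306 CPM in replicate 3 of WT MPP4 to 766 in replicate 1 of IκB– MPP2, with the library numbered 1 highest in 8 of 8 groups. The mean correlation between pairs of its regions over libraries was 0.51, and 0.28 once the gene-end share had been regressed out. The next cluster, Zfp738 to Zfp273 (chr13:67667441-67827000), spanned 84.3 to 302 CPM with a mean correlation of 0.54 (0.35 without the gene-end share) over 3 regions. Zfp954, Zfp773 and Zfp418 on chromosome 7 (0.65, and 0.51 without it) and Zfp978, Zfp982 and Zfp933 on chromosome 4 (0.56, and 0.20 without it) were alike in the first value. The cluster of 15 genes from Zfp84 to Zfp146 on chromosome 7, with 9 tested regions, had a mean correlation of 0.06 (0.08 without it) and spanned only 311 to 480 CPM, and Zfp786 to Zfp746 on chromosome 6 had -0.14 (-0.17). Over all clustered members the mean was 0.11 and over single members -0.00. For the 76 pairs of members within 100 kb of each other the mean correlation was 0.25, beside 0.16 for 5863 pairs of other gene-end regions at that distance, and 0.20 and 0.10 once the gene-end share had been regressed out. These are descriptions over regions of the same libraries.

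Single regions of the chromosome 13 clusters showed the span. Zfp429 ran from 4.44 CPM in replicate 3 of IκB– HSC to 97.3 in replicate 1 of WT MPP4, Zfp456 from 9.55 to 125, both extremes in WT MPP4, and Zfp58 from 9.43 to 90.4. Zfp87 in the same cluster ran from 52.5 to 154. Of the 11 regions of both clusters 9 had their lowest value in a library with a gene-end share of at least 70.2%. Zfp712 and Zfp748 did not: they were lowest in replicate 2 of IκB– MPP4 (65.5%) and replicate 1 of WT HSC (66.2%).

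**Figure D5:**
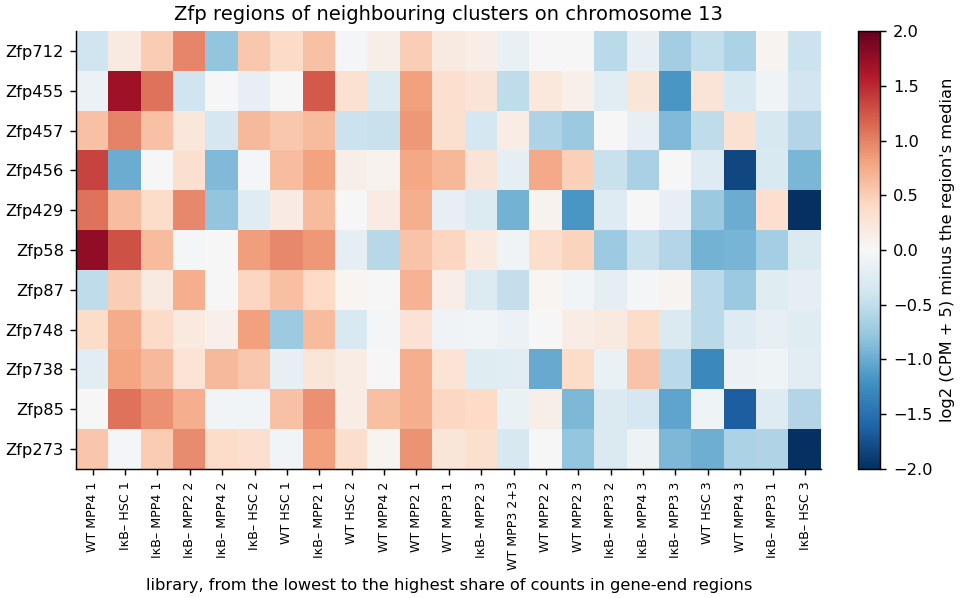
Level of 11 Zfp regions of neighbouring chromosome 13 clusters (rows) in 23 replicates (columns, ordered by the share of counts in gene-end regions), as log2 of CPM plus 5 minus the median of the region. Red cells, above the median, gather at the left in most rows, and blue ones at the right, where Zfp429 falls to 4.44 CPM.

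The same split touches the recipient comparison in MPP3. There the median log2 fold change was -0.19 for clustered members, with 75 of 110 below 0, 0.04 for single members, with 37 of 84 below 0, and 0.08 for the other gene-end regions. The gene-end share was 67.6% and 67.7% in the WT MPP3 replicates and 68.9% to 71.9% in the IκB– ones, which do not overlap. With that share as a covariate, an alternative added after the data had been seen, the medians were -0.06, 0.05 and 0.01. With scaling factors from gene-end regions only, the clustered median was -0.27, the single one turned to -0.04 and that of the other gene-end regions was 0.00.

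The promoters of members were poorer in CpG than other promoters with a region. The 300-base window (250 before to 50 after the start) held a median of 15 CpG and 55.2% G and C for the 160 Zfp promoters that overlapped a member, against 24 CpG and 63.0% for 6620 other promoters that overlapped a region. The 121 Zfp promoters without a region had 10 CpG and 52.7%. The share of Zfp promoters that overlapped any region was higher in each higher CpG class, from 8.33% of 24 with 0 to 4 CpG and 59.0% of 134 with 5 to 14 to 66.7% of 102 with 15 to 24 and 77.3% of 44 with 25 or more. Among promoters with a member the CpG count showed little relation to the level per kb (Spearman's rho 0.07 across 160 regions).

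Short patterns of factors that act at promoters were counted on both strands of these windows. AANATGGCG, the core of the YY1 site, was in 10.6% of the members' promoters, in 6.42% of other promoters with a region and in 3.33% of all 17491 promoters. CCGGAAG, bound by ETS factors, was in 23.8%, 22.2% and 12.1%, and the NRF1 pattern in 17 of 160, 927 of 6620 and 1185 of 17491. The pattern of ZNF143 was in 5.62%, 3.25% and 1.62%. GGGCGG of the Sp and Klf factors was in 51.2%, 74.4% and 46.9%, and CCAAT of NF-Y in 51.9%, 43.0% and 39.2%. TGACGTCA, the CRE, was in 3.12%, 3.96% and 2.31%, and CACGTG, the E-box, in 7.50%, 10.98% and 7.93%. A match is a description of the letters and does not show binding.

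Because the recipients are named after the inhibitor of NF-κB, the κB pattern, which begins with GGGA and ends with TTCC around a pair of free bases, was also counted. It was in 4 of 160 members' promoters (2.50%), in 1.28% of other promoters with a region and in 1.42% of all promoters. The 4 are shown with 10 bases on either side and the match in capitals, on the strand of the gene, where the pattern can appear as its reverse complement. Zfp617 (chr8:71922752-71922781) has it at position -63 from the start site, Zfp84 (chr7:29768405-29768434) at -137 and, overlapping on the other strand, at -136, and Zfp946 (chr17:22424058-22424087) at -134. Zfp622 (chr15:25984363-25984392) has it at positions 8 and 31, of which the first is shown.
Zfp617: gaggtccgccGGAAACTCCCggtacagaca
Zfp84: ttggatccttGGGAAATTCCccctttagaa
Zfp946: gggaggggccGGAACCTCCCtggggcgtgg
Zfp622: tgtgcgagtcGGAAGTTCCCtcacttagaa
Their mean recipient effects were -0.27 ± 0.14 for Zfp617 (adjusted p 0.404), 0.01 ± 0.19 for Zfp84 (0.996), -0.27 ± 0.29 for Zfp946 (0.729) and 0.24 ± 0.14 for Zfp622 (0.479), all from edgeR. None of the 4 passed the threshold, and their signs differed.

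Genes of the corepressor that KRAB domains recruit, and other C2H2 families, were read from the same fit. Of 23 corepressor genes 18 had a region, 21 regions in all. None was called for the mean recipient effect, 2 of 21 were called in the joint test between subsets (7.18% of all regions) and 1 of 21 in MPP3 minus HSC (2.57%). The called regions are neighbours at 1 gene, Trim28, the scaffold of that complex, and do not count as separate findings. The region chr7:13023216-13023432 had a log2 fold change of 1.17 ± 0.33 in MPP3 minus HSC (adjusted p 0.0397, edgeR). In the joint test its adjusted p was 0.0264, and that of chr7:13023927-13024735 was 0.0323 (edgeR). Both also lie near the gene Gm31649. Of the Zbtb family, whose fingers follow a BTB domain, 26 of 35 genes had a region, and 1 of 25 tested regions, at Zbtb12, was called in the joint test (adjusted p 0.0341, edgeR; 7.18% of all regions). The Zkscan (6 of 11 genes) and Zscan (7 of 11 genes) families had 0 calls in all 10 contrasts, with 5 and 7 regions tested.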

How the data were processed

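Whole-number counts per region were deposited by the authors for 24 ATAC-seq libraries; the submitters' processing notes name Bowtie2, SAMtools, Picard, MACS2 2.1.0, deepTools and mm10, without roles. The Tn5 offset, duplicate handling and peak threshold are not given in the sources used here. Regions had been chosen by the authors over shared coordinates, so a promoter outside the table may have been open below their threshold.

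From the counts, edgeR 4.0.16 in R 4.3.3 (limma 3.58.1) was run with TMM scaling, filterByExpr by group (13325 regions, 194 of the 200 members; the other 6 are those of Zfp940, Zfp592, Zfp599, Zfp7, Zfp740 and Zfp40) and a robust quasi-likelihood fit of 8 group means with 15 residual degrees of freedom; p-values were adjusted by Benjamini-Hochberg over all regions of a contrast. WT MPP3 replicates 2 and 3 were summed after a chi-square test of their counts (1.005 per degree of freedom, p 0.348 over 13126 regions). The fit was also run on simulated counts with known changes, and the outcome is not reported here. Alternatives were RLE factors, DESeq2 1.42.0, limma-voom, total counts, factors from gene-end regions, loess offsets, no filter, nuclear regions only, 24 libraries apart with and without the replicate block, 1 replicate left out, and members within 500 bp or 2 kb. Correlations between regions used log2 of CPM plus 5, minus group means. Named members are those with the smallest p per contrast and direction, the 6 highest and 3 lowest levels, a list of genes with known roles, and regions shared by Zfp genes; those with κB matches the leaders per kb and the named clusters and their members were chosen after their values were seen. The members and lists were chosen with earlier results of these data known. Protein sequences were not used here, so members were not split by KRAB domain.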

Additional observations from a re-analysis of the deposited data

How the results depend on the processing

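The count of 0 called members held in the 5 contrasts of the recipient effect in HSC, MPP2 and MPP4, the recipient effect by subset and MPP2 minus HSC under every alternative run. In the others some alternatives called members. For the mean recipient effect 1 member was called with the gene-end share as covariate (Zfp664, added after the data had been seen; 2.94% of all regions were called there), and leaving out 1 replicate gave 0 to 1, where 1.19% to 1.42% of all regions were called: Zfp658 without WT MPP2 replicate 1, Zfp664 without IκB– HSC replicate 3 and Zfp281 without IκB– MPP3 replicate 1. For any subset difference 1 was called with total counts (Zfp1, 7.29% of all regions). With cyclic loess offsets (7.83%) and with the 24 libraries apart (8.29%) 1 was called each, both times Zfp951. With the covariate 5 were called (2.58%, beside 9.43% of all regions). Leaving out 1 replicate gave 0 to 11, the 11 (5.56%, beside 10.9% of all regions) without IκB– HSC replicate 3. The other such fits that called a member called 6.45% to 8.54% of all regions. For MPP3 minus HSC it was 1 with total counts (Zfp1; 2.68% of all regions) and 0 to 5 with 1 replicate left out, the 5 (5.87% of all regions) again without IκB– HSC replicate 3. The replicate numbers were not taken as pairing: deviations of same-numbered libraries correlated at 0.028 to 0.342 over 36 pairs of 1 recipient and at -0.051 to 0.407 over 48 pairs across recipients, with 27 and 25 over 0.1. With the replicate block the count of called members was 1 for the mean recipient effect (Zfp664, -0.75; 3.70% of all regions), 1 for the recipient effect in MPP3 (Zfp971, -1.35; 2.74%), 31 of 192 for any subset difference (16.1%), 6 for MPP3 minus HSC (3.12%) and 1 for MPP4 minus HSC (Zfp202, 0.86), where 16.6%, 7.07% and 3.43% of all regions were called. The 16 log2 fold changes named for the smallest p per contrast and direction kept their sign in all 543 values from the alternatives. They were picked in the same data and the alternatives reuse its counts, so the kept sign is no independent evidence. Some medians near 0 did change sign. With total counts the median of MPP3 minus HSC over all members went from -0.11 to 0.03, over clustered members from -0.14 to 0.00 and over single members from -0.05 to 0.09, while that of all regions went from -0.02 to 0.12. In MPP4 minus HSC the member median went from -0.03 to 0.02 with total counts and to 0.01 with gene-end factors. As a share of counts in gene-end regions the members took 2.49%, 2.46%, 2.49% and 2.50% in WT HSC, MPP2, MPP3 and MPP4 and 2.50%, 2.67%, 2.27% and 2.50% in the same subsets of IκB– recipients. The cause of these shifts was not tested. The median member had 7 to 60 counts per library, and intervals cover counting and replicate spread only.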
